A study of Mus musculus with 6 samples.

Results

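The neural Sox and POU class III transcription factors were followed as a set of 10 named genes: Sox1, Sox3, Sox21, Sox4, Sox11, Pou3f1, Pou3f2, Pou3f3, Pou3f4 and Zfp521. They were found through the transcript accession of each array probe, and all 10 had a probe, among 17016 genes named in this way. RNA was measured in cells of strain 129 grown in Knockout DMEM with 20% KSR. Mouse ES (mES) cells came from the E3.5 embryo, and EpiSCs, the epiblast stem cells that correspond to the later, primed epiblast, were a line from E3.5 and a line from E5.5 embryos. Each was left untreated or was given 20 µM SB431542, which blocks the receptor kinases that Activin, Nodal and TGF-beta act through, daily for 4 days. These 6 groups held 1 array each, so the E3.5 and E5.5 EpiSC lines served as replicates of their class in the tests. Each line is a single line per stage as labelled, and nothing in the labels says that arrays came from separate cultures. The p-values thus describe no more than the spread among these 6 samples, which can be technical. Where the EpiSC lines stand as replicates of their class, only the EpiSC arrays contribute to that spread. A single mES array per group adds none.

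Sox proteins bind DNA through an HMG box. Sox1 and Sox3, of the SoxB1 group, hold cells in a neural progenitor state, Sox21 of the SoxB2 group counteracts them, and Sox4 and Sox11 of the SoxC group act in neuronal differentiation. POU class III proteins bind the octamer and related sites and work together with Sox partners on neural enhancers such as that of Nestin. Pou3f1 (Oct6) is in addition a gene of the epiblast after implantation, Pou3f2 (Brn2) drives neurogenesis, and Zfp521 is a zinc finger protein that promotes the passage of ES cells to neural progenitors.

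Promoter windows, the 250 bases before the annotated start, were taken from RefSeq (GRCm38.p6) for 7 of the 10 genes. The entries for Sox3, Pou3f1 and Zfp521 were missing. The windows printed here are those of the 3 members with the largest estimated response to SB431542 in EpiSCs, Pou3f2, Sox21 and Sox11, and that of Pou3f4, the member with the smallest. Capitals mark the GC box, GGGCGG on either strand. The windows lie at chr4:22488367-22488616 (minus strand) for Pou3f2, chr14:118237031-118237280 (minus strand) for Sox21, chr12:27342719-27342968 (minus strand) for Sox11 and chrX:110814129-110814378 (plus strand) for Pou3f4.
Pou3f2: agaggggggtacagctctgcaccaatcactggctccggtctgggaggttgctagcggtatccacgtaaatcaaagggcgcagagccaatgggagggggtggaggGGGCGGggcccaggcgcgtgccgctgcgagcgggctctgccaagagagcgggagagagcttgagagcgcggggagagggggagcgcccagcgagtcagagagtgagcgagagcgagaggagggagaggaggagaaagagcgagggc
Sox21: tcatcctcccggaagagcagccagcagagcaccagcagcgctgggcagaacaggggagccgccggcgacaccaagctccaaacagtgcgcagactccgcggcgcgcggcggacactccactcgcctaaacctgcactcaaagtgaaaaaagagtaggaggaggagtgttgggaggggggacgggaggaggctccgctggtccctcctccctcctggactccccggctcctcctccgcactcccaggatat
Sox11: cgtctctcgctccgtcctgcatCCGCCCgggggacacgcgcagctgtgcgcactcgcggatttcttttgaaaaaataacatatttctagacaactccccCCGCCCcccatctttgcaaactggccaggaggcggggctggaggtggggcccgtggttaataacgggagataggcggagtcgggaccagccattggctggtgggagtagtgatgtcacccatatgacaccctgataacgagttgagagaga
Pou3f4: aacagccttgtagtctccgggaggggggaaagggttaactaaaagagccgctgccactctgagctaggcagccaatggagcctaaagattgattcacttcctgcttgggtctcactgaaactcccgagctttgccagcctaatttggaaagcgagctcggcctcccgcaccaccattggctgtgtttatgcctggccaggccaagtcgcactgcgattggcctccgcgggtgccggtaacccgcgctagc

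GC content ran from 50.8% (Sox4) to 71.2% (Sox1) over the 7 windows. It was 66.8% for Pou3f2, 65.2% for Sox21 and 58.0% for both Sox11 and Pou3f4, and the median over 32851 promoter windows of the same length was 52.4%, so that Sox4 lay below it and the other 6 above. The observed over expected CpG ratio was 0.761 for Pou3f2, 0.641 for Sox21, 0.81 for Sox11 and 0.619 for Pou3f4, against a median of 0.374 over all windows, and the remaining 3 windows were also above that median. A GC box was present in 4 of the 7 windows (Pou3f2, Pou3f3, Sox1 and Sox11) and in 32.7% of all windows. The octamer ATGCAAAT was found in 0 of the 7 windows and in 1.6% of all. Its shorter core ATGCAA, which every octamer also contains, was found in 1 of the 7, that of Sox4, and in 9.45% of all. The Sox core, searched as ACAATG or ACAAAG, was found in 0 of the 7 and in 25.2% of all, and TATAAA in 0 of the 7 and in 12.4% of all. All motifs were searched on both strands.

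On each array 82.6% to 85.7% of the gene spots were well above background and 0 were saturated. The main probe of all 10 members was well above background on all 6 arrays. Signals are given as log2 of the processed intensity over the 75th percentile of the same array, called the log2 signal below, and a gene was called at an adjusted p under 0.05. The untreated lines carried markers of their labels, the E3.5 EpiSC line fewer of them. Of 6 naive ES cell markers 1 (Dppa3) was called lower in EpiSCs and 0 higher, with a median difference of -7.62. Of 6 EpiSC markers 2 (Fgf5 and Fgf8) were called higher. As single pairs, 2 of these 6 were at least 2-fold above mES cells in the E3.5 line (10.8% of all genes) and 4 in the E5.5 line (11.7%). Otx2 was not higher in the E3.5 line, at -0.18 against -0.04 in mES cells. Pou3f1 itself belongs to that EpiSC list. The mES arrays and the E5.5 EpiSC arrays shared slide 1, whereas the untreated and the treated E3.5 EpiSC arrays lay on slides of their own, so that slide and treatment cannot be told apart within the E3.5 pair. The E5.5 pair, on a single slide, is given beside it throughout.

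**Figure D1:**
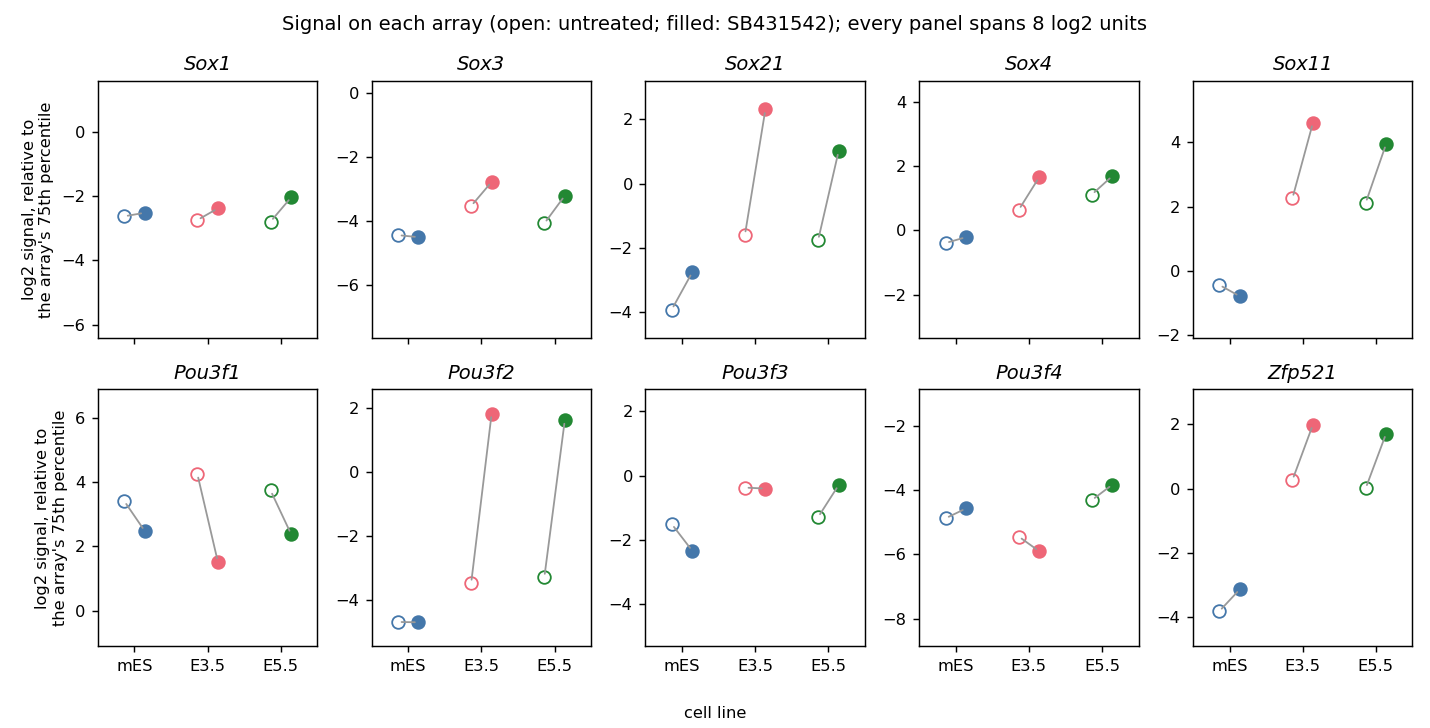
Log2 signal (scaled to the 75th percentile of each array) of the 10 genes on the 6 arrays, by cell line on the horizontal axis; each point is 1 array, open for untreated and filled for SB431542, and every panel spans the same height. Pou3f2 climbs from -3.47 to 1.81 in the E3.5 line and from -3.28 to 1.61 in the E5.5 line while staying at -4.67 and -4.68 in mES cells, and Pou3f1 is the member that is lower on the treated array of all 3 lines.

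The untreated EpiSC lines were first set against untreated mES cells, to see which of these factors already differ between the primed and the naive state. Zfp521 was higher in EpiSCs, by 3.95 ± 0.34 (SE) on the log2 scale, or 15.5-fold (limma, adjusted p = 0.0238, 2 EpiSC arrays against 1 mES array). It was the single member called of 10, and 0 were called lower. Over all 16153 genes tested, 0.39% were called higher and 1.11% lower in this comparison, 1.5% in all. The 10 members had a median difference of 0.97, against -0.06 over all genes tested. In bulk samples such as these, fewer cells of a type and less RNA per cell cannot be told apart.

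Zfp521 had log2 signals of -3.81 and -3.13 in untreated and treated mES cells, 0.27 and 2.0 in the E3.5 line and 0.01 and 1.72 in the E5.5 line. All 4 EpiSC arrays lay above both mES arrays, and within slide 1 the E5.5 line exceeded mES cells by 3.82. The processed intensity in untreated mES cells was low, at 98.4, which limits the fold. With another background correction the estimate was 3.33 in place of 3.95. The 4 EpiSC arrays alone, treated ones included, give the estimate of the spread, as a single mES array per group adds none. Without either treated EpiSC array the estimate stayed at 3.95, but Zfp521 was no longer called.

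The SoxC gene Sox11 had log2 signals of -0.44 and -0.79 in mES cells, 2.26 in untreated E3.5 EpiSCs and 2.11 in untreated E5.5 EpiSCs. Both untreated EpiSC arrays were above both mES arrays, by an estimated 2.62 ± 0.41 against untreated mES cells, which did not pass (limma, adjusted p = 0.0688). Sox4, the other SoxC gene, had -0.40 and -0.21 in mES cells, 0.63 in untreated E3.5 EpiSCs and 1.11 in untreated E5.5 EpiSCs. Its estimate of 1.27 ± 0.36 did not pass (adjusted p = 0.198, limma). The SoxC genes thus had the higher signals in EpiSCs, with neither difference past the threshold.

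Sox21 had log2 signals of -3.92 in untreated mES cells, -1.60 in untreated E3.5 EpiSCs and -1.77 in untreated E5.5 EpiSCs. The estimate of 2.24 ± 0.61 did not pass (limma, adjusted p = 0.181). For Pou3f2 the corresponding signals were -4.67, -3.47 and -3.28, and the estimate of 1.30 ± 0.33 did not pass either (limma, adjusted p = 0.157). Pou3f1 was well above the 75th percentile in all 3 untreated lines, at 3.41 in mES cells, 4.25 in the E3.5 line and 3.74 in the E5.5 line. Its difference of 0.58 ± 0.51 was close to the size of its error (limma, adjusted p = 0.681), with the mES array below both EpiSC arrays.

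For Sox1 the estimate was -0.14 ± 0.34, for Sox3 0.63 ± 0.41, for Pou3f3 0.67 ± 0.48 and for Pou3f4 0.00 ± 0.99, none of which passed. Both untreated EpiSC arrays nevertheless lay above both mES arrays for 8 of the 10 members, all but Sox1 and Pou3f4, a pattern that 29.1% of all genes showed. The reverse order, shown by 39.7% of all genes, was seen for 0 members. Taken as single pairs with no test, 6 members were at least 2-fold higher in E3.5 EpiSCs than in mES cells (10.8% of all genes) and 5 in E5.5 EpiSCs (11.7% of all genes). Pou3f3 was the member past 2-fold in the E3.5 line alone, at log2 ratios of 1.14 in the E3.5 and 0.21 in the E5.5 line.

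**Figure D2:**
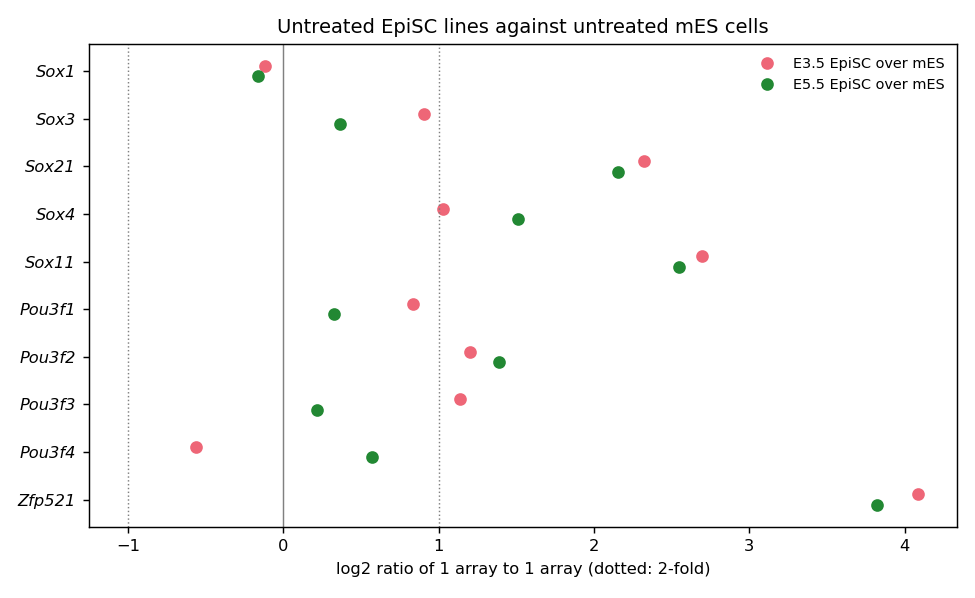
Log2 ratio of each untreated EpiSC array to the untreated mES array for the 10 genes, with dotted lines at 2-fold; each point is a single pair of arrays. Zfp521 lies farthest right in both lines (4.09 and 3.82), followed by Sox11 (2.697 and 2.55) and Sox21 (2.32 and 2.16), and Pou3f4 has points on both sides of 0.

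SB431542 was added to ask what happens to each pluripotent cell when Activin and Nodal signalling is blocked. In the EpiSC lines Pou3f2 rose by 5.09 ± 0.27 on the log2 scale, or 34.0-fold (limma, adjusted p = 0.0227, 2 treated against 2 untreated arrays). It was the 1 member of 10 called higher when the line was not in the model, and 0 were called lower. Over all genes tested 0.891% were called higher and 1.2% lower, 2.09% in all. Each treated array has an untreated partner of the same cell line, and with the line as a block 4 members were called higher: Pou3f2 (adjusted p = 0.0109), Sox21 (0.0231), Sox11 (0.0347) and Zfp521 (0.0451), all by limma. With that block 2.27% of all genes were called higher and 3.03% lower. The median of the 10 estimates was 0.80, against -0.19 over all genes tested.

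Among the POU genes, Pou3f2 had log2 signals of -3.47 and 1.81 in untreated and treated E3.5 EpiSCs and of -3.28 and 1.61 in the E5.5 pair. In processed intensity it went from 108 to 6333 in the E3.5 line and from 126 to 4457 in the E5.5 line. In mES cells it stayed at 54.3 and 49.9. The treated EpiSC arrays were thus far above all 4 others, and the within-slide ratio of the E5.5 pair was 4.89. Without the treated E3.5 array the estimate was 4.99 with an adjusted p of 0.141, and without the treated E5.5 array 5.19 with an adjusted p of 0.0695 (limma).

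Pou3f1 had the opposite course, with log2 signals of 4.25 and 1.52 in untreated and treated E3.5 EpiSCs, 3.74 and 2.38 in the E5.5 pair and 3.41 and 2.48 in the mES pair. Both treated EpiSC arrays lay below the other 4, and the treated array was below the untreated one in 3 of 3 lines. The estimate in EpiSCs was -2.04 ± 0.41, or 4.12-fold lower, which did not pass (limma, adjusted p = 0.0968, and 0.0728 with the line block). Pou3f1 and Pou3f2 belong to the same POU class, and their centred profiles were the farthest apart of any 2 members, with a root mean square difference of 3.45 and a Pearson correlation of -0.68 over the 6 arrays.

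Pou3f3 (Brn1), which acts with Pou3f2 in the developing cortex, was read by a pair of probes that differed. The probe with the higher mean signal had log2 signals of -0.37 and -0.40 in the E3.5 pair, -1.30 and -0.30 in the E5.5 pair and -1.51 and -2.34 in the mES pair. Its estimate in EpiSCs was 0.48 ± 0.39 (limma, adjusted p = 0.522). The other probe was not well above background in both mES arrays and in untreated E5.5 EpiSCs. It had -5.77 and -1.06 in the E3.5 pair, a 26.1-fold ratio, and -2.21 in treated E5.5 EpiSCs, at least 17.2-fold above the untreated array when that array is set at the higher of its lowest signal above background and the signal of the probe. With each of 37263 probes tested on its own, it was higher in treated EpiSCs by 4.74 ± 0.61 (limma, adjusted p = 0.0485), a value that holds the signal at background as measured. So the treated EpiSC arrays were the highest ones for the dimmer probe, and the groups overlapped for the brighter one.

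Pou3f4 (Brn4), a factor of the neural tube and inner ear, had a low signal throughout. Its processed intensity ran from 27.3 to 102 over the 6 arrays. Log2 signals were -5.45 and -5.90 in the E3.5 pair, -4.31 and -3.83 in the E5.5 pair and -4.88 and -4.57 in the mES pair. Treated and untreated arrays overlapped, and the estimate in EpiSCs was 0.01 ± 0.81 (limma, adjusted p = 0.994).

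**Figure D3:**
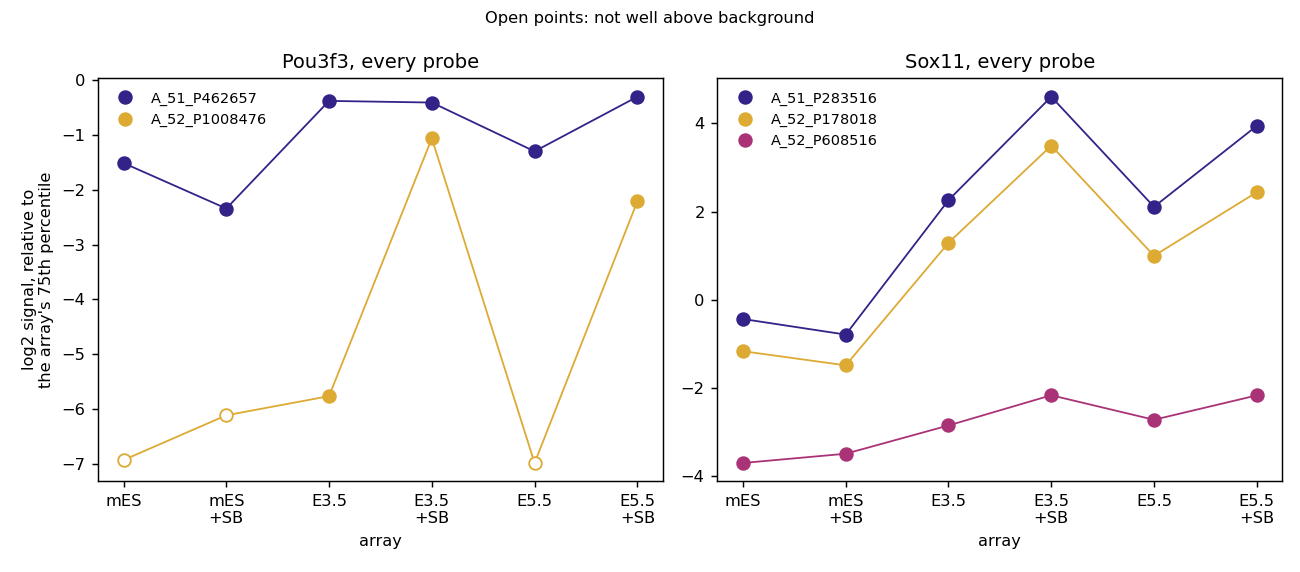
Log2 signal (scaled to the 75th percentile of each array) of every probe of Pou3f3 (left) and Sox11 (right) on the 6 arrays, with open points where the probe was not well above background. The dimmer Pou3f3 probe reaches -1.06 and -2.21 on the treated EpiSC arrays, whereas the brighter one stays between -2.34 and -0.30; the 3 Sox11 probes keep the treated EpiSC arrays on top.

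Among the Sox genes, Sox21 had log2 signals of -1.60 and 2.31 in untreated and treated E3.5 EpiSCs, -1.77 and 1.0 in the E5.5 pair and -3.92 and -2.77 in the mES pair. The treated EpiSC arrays were the highest 2 of the 6, and the treated array was above the untreated one in 3 of 3 lines. The increase in EpiSCs was 3.34 ± 0.50 (limma, adjusted p = 0.0573 without the line and 0.0231 with it as a block). Sox21 was also the member past 2-fold in the mES pair, at a log2 ratio of 1.16, where 1.41% of all genes were at least 2-fold higher and 1.13% lower.

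Sox11 reached the largest log2 signals of its own range in treated EpiSCs, 4.61 in the E3.5 and 3.94 in the E5.5 line, from 2.26 and 2.11 without SB431542. The increase was 2.09 ± 0.34, or 4.26-fold (limma, adjusted p = 0.0639 without the line and 0.0347 with it as a block). In mES cells it went from -0.44 to -0.79. The other probes of Sox11 had smaller estimates in EpiSCs, 1.82 ± 0.44 and 0.62 ± 0.27, and when each probe was tested on its own none of the 3 passed without the block, while the main probe passed with it (limma, adjusted p = 0.0431). For all 3 probes the treated EpiSC arrays were the highest 2 of the 6.

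Sox4 had log2 signals of 0.63 and 1.65 in the E3.5 pair and 1.11 and 1.69 in the E5.5 pair, against -0.40 and -0.21 in mES cells. The estimate in EpiSCs was 0.80 ± 0.30 (limma, adjusted p = 0.244). The SoxB1 genes had estimates of similar size. Sox1, a marker of the neural plate, had -2.75 and -2.38 in the E3.5 pair, -2.80 and -2.04 in the E5.5 pair and -2.63 and -2.52 in mES cells, with an estimate of 0.56 ± 0.28 (limma, adjusted p = 0.333). Sox3 had -3.53 and -2.78 in the E3.5 pair, -4.08 and -3.21 in the E5.5 pair and -4.44 and -4.50 in mES cells, with an estimate of 0.81 ± 0.34 (limma, adjusted p = 0.278). Neither passed, though both had their highest 2 signals on the treated EpiSC arrays. The signal of Sox3 was low, and with another background correction its E5.5 ratio was -0.01 in place of 0.87.

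Zfp521 had an increase of 1.72 ± 0.28 in EpiSCs on top of its higher level there (limma, adjusted p = 0.0662 without the line and 0.0451 with it as a block). The ratio was 1.72 in the E3.5 and 1.71 in the E5.5 pair, which is the closest agreement between the lines among the members whose ratios passed 2-fold in both. In mES cells its ratio was 0.68. Both treated EpiSC arrays were above the other 4 for 7 of the 10 members, namely Sox1, Sox3, Sox21, Sox4, Sox11, Pou3f2 and Zfp521, a pattern that 16% of all genes showed. They were below the other 4 for 1 member, Pou3f1, and 29.6% of all genes. Pou3f3, by its main probe, and Pou3f4 overlapped.

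Counted over single pairs with no test, 5 members were at least 2-fold higher and 1 lower in treated E3.5 EpiSCs, where 11.4% of all genes were higher and 19.7% lower. In treated E5.5 EpiSCs 4 members were higher and 1 lower, where 6.48% of all genes were higher and 8.75% lower. The 4 shared by both lines were Sox21, Sox11, Pou3f2 and Zfp521, and the E3.5 line added Sox4, which stood just past the 2-fold line at a log2 ratio of 1.02. Pou3f3 in the E5.5 pair stood just short of it, at 0.997. The mES pair had 1 member higher and 0 lower. Set against treated mES cells, treated E3.5 EpiSCs had 7 members at least 2-fold higher and 1 lower, where 15.6% of all genes were higher and 28.2% lower, and treated E5.5 EpiSCs had 7 higher and 0 lower, where 13.8% were higher and 16.2% lower. The 7 were Sox3, Sox21, Sox4, Sox11, Pou3f2, Pou3f3 and Zfp521 in both lines, with the largest log2 ratios for Pou3f2 (6.49 and 6.29), and the 1 lower in the E3.5 line was Pou3f4 (-1.33).

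**Figure D4:**
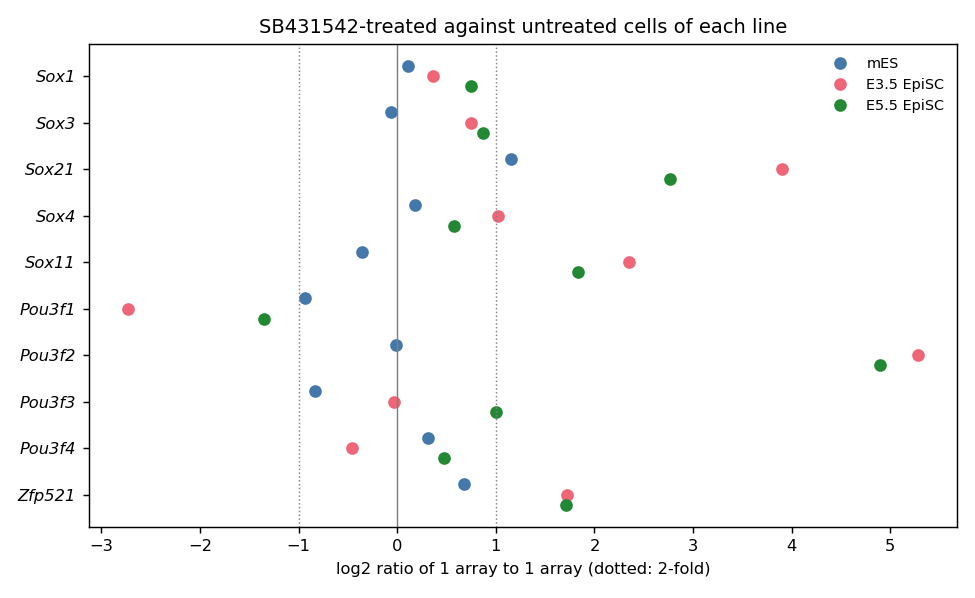
Log2 ratio of the SB431542-treated to the untreated array of each line for the 10 genes, with dotted lines at 2-fold; each point is a single pair of arrays. Pou3f2 (5.28 and 4.89), Sox21 (3.90 and 2.77), Sox11 (2.35 and 1.84) and Zfp521 (1.72 and 1.71) lie right of the 2-fold line in both EpiSC lines, Pou3f1 lies left of 0 in all 3 lines, and the mES points lie between -0.93 and 1.16.

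Whether the response in EpiSCs differed from that in mES cells was tested directly. No member and no other gene was called (0 of 16153), although 1111 genes, 2 members among them, had an unadjusted p under 0.05 (limma). Those members were Pou3f2, with a response larger by 5.10 ± 0.46 in EpiSCs (adjusted p = 0.286, and 0.151 with the line block), and Sox11, larger by 2.45 ± 0.58 (adjusted p = 0.469, and 0.261 with the line block), all by limma. For Sox21 the difference was 2.18 ± 0.86 and for Zfp521 1.03 ± 0.49. For Pou3f1 the decline was deeper in EpiSCs by an estimate of -1.11 ± 0.72, little beyond its error. A difference between the responses was thus not established for any member.

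Over all 3 lines, 0 genes were called for SB431542, and 1398 genes had an unadjusted p under 0.05 (limma). Of the members 4 were among these: Sox21 (2.61 ± 0.57), Zfp521 (1.37 ± 0.30), Pou3f1 (-1.67 ± 0.41) and Pou3f2 (3.39 ± 1.16), each with an adjusted p of 0.503. For Pou3f2 the ratios of the 3 lines lay far apart, at -0.01 in mES cells against 5.28 and 4.89 in EpiSCs. Leaving out either mES array leaves the EpiSC pairs as the basis of the estimate. That repeats the fit of SB431542 in EpiSCs with the line as a block, with the same 856 genes and 4 members called.

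The lines from E3.5 and E5.5 embryos were compared over their treated and untreated arrays. The E5.5 arrays lay on slide 1 and the E3.5 arrays on slides of their own, so line and slide cannot be told apart here. Again 0 genes were called, and 1265 genes had an unadjusted p under 0.05, with 1 member among them (limma). That was Pou3f4, higher in the E5.5 line by 1.60 ± 0.33 (adjusted p = 0.514, limma), with both E5.5 signals (-4.31 and -3.83) above both E3.5 signals (-5.45 and -5.90). The other 9 members had estimates between -0.74 and 0.26, none of which passed, and the largest in size was -0.74 ± 0.70 for Sox21. As single pairs, 1 member (Pou3f4) was at least 2-fold higher and 0 lower in untreated E5.5 than in untreated E3.5 EpiSCs, where 5.93% of all genes were higher and 3.75% lower. Between the treated lines 1 member (Pou3f4) was higher and 1 (Sox21) lower, where 10.6% of all genes were higher and 5.91% lower.

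Profiles over the 6 arrays were next compared among the members, by the main probe of each gene and as a description. The dimmer Pou3f3 probe, which had a log2 ratio of 4.71 in the E3.5 pair against 0.75 for Sox3, was thus left out. The closest members were Sox3 and Pou3f3, with a root mean square difference of 0.34 between centred log2 signals, and Sox3 and Sox4 with 0.41. Sox11 and Zfp521 followed with 0.46 and a Pearson correlation of 0.98 over the 6 arrays. They shared the step from mES cells to EpiSCs and a further step with SB431542. Over all 16141 candidate genes, those nearest to Zfp521 were Sox9 (root mean square difference 0.28), Rgma (0.31) and Pcdhb21 (0.33). Nearest to Sox11 were Shd (0.17), 6330403K07Rik (0.23) and Spsb4 (0.26), and among those nearest to Sox21 were Nsg1 (0.30) and Gprin1 (0.34). Nearest to Pou3f2 were Nr2f2 (0.35), Scube1 (0.37) and Cck (0.45), and nearest to Pou3f1, with its opposite course, were Cd53 (0.16), Jph1 (0.21) and Lrrc3 (0.27). Sox4 had Lyrm2 (0.09), Tspan3 (0.09) and Usp47 (0.10) nearest to it. Sox1, Sox3, Pou3f3 and Pou3f4 had Pias3 (0.06), Vash1 (0.07), Invs (0.19) and Stat3 (0.18) as their nearest genes. The arrays shared line, treatment and slide, so these likenesses are not independent of the design.

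The other Sox genes of the array gave a frame for the members. Of 14 listed, 11 were measured, and 1 was called in untreated EpiSCs against mES cells: Sox9, a SoxE gene of neural crest and glia, was higher by 4.23 ± 0.31 (limma, adjusted p = 0.0192). With SB431542 in EpiSCs 0 of the 11 were called without the line and 3 (Sox6, Sox8 and Sox9) rose with it as a block. Sox2, the SoxB1 partner of Oct4 in pluripotent cells and of POU class III factors in neural progenitors, had log2 signals of 3.18 and 3.29 in the mES pair, 2.11 and 2.77 in the E3.5 pair and 2.47 and 2.80 in the E5.5 pair. Its estimate for SB431542 in EpiSCs was 0.49 ± 0.28 (limma, adjusted p = 0.383), close to those of Sox1 and Sox3. The median of the 11 was 0.49 in that comparison, against 0.80 for the members and -0.19 for all genes tested.

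Of 11 other POU genes 9 were measured, and 1 was called lower with SB431542 in EpiSCs. This was Pou5f1 (Oct4), the POU factor of pluripotent cells, which fell by 10.69 on the log2 scale (SE 0.42, limma, adjusted p = 0.0227). Its log2 signals were 5.73 and -5.39 in the E3.5 pair and 5.88 and -4.38 in the E5.5 pair, against 5.59 and 5.35 in mES cells. Pou5f1 and Pou3f2 therefore changed in opposite directions on the same arrays, and in mES cells both stayed near their untreated signal. The median of the 9 was -0.38.

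Known neural targets and partners of Sox and POU class III factors were taken as a list of 18, all measured. In EpiSCs given SB431542, 3 rose and 0 fell, with a median of 2.02 against -0.19 over all genes tested, and 11 rose with the line as a block. Among them were Hes5, the Notch effector of neural progenitors (6.97 ± 0.47, adjusted p = 0.0227), and Tubb3, the neuronal tubulin (3.79 ± 0.44, adjusted p = 0.0397), both by limma. Nes, whose neural enhancer is bound by Sox and POU partners, had an estimate of 1.81 ± 0.44 that did not pass (adjusted p = 0.134, limma), and Pax6 one of 3.11 ± 0.44 (adjusted p = 0.0524, limma). In mES cells the signals of Hes5 (-1.20 and -1.06) and Tubb3 (1.38 and 1.43) hardly differed between the arrays, as for Pou3f2. None of the 18 was called between untreated EpiSCs and mES cells.

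Markers of other cell types were read on the same arrays. Of 9 neuron markers, 2 rose with SB431542 in EpiSCs (Tubb3 and Elavl4) and 5 with the line as a block. Their summed linear signal relative to the 75th percentile was 6.39 to 7.96 on the mES and untreated EpiSC arrays, 56.4 in treated E3.5 EpiSCs and 21.3 in treated E5.5 EpiSCs. Of 7 measured neural crest markers, 1 rose (Pax3, by 5.33 ± 0.42, limma, adjusted p = 0.0253), and with the line as a block Foxd3, a gene of the early crest and of pluripotent cells, also passed, with a fall of -2.43 (limma, adjusted p = 0.0397). The crest sum was 1.70 to 4.07 on the mES and untreated EpiSC arrays. It was 7.52 in treated E3.5 and 5.51 in treated E5.5 EpiSCs. Pax3 had the highest log2 signal of the list on those treated arrays (1.93 and 1.77). The median estimate of the list was 0.07, against -0.19 over all genes tested. Oligodendrocyte and astrocyte markers had 0 of 7 called. Their sum was 1.19 to 2.20 on the mES and untreated EpiSC arrays, 4.28 in treated E3.5 and 6.04 in treated E5.5 EpiSCs. Mbp had the highest log2 signal of that list on those treated arrays (1.70 and 2.31). Fibroblast markers had 0 of 9 called. Their sums were 74.7 and 66.8 in the E3.5 pair, 118 and 118 in the E5.5 pair and 43.2 and 56.9 in the mES pair. Such sums weigh the brightest markers most. The median log2 ratio of the 9, treated over untreated, was 1.82 in the E3.5 and -1.33 in the E5.5 pair. Over all genes tested these medians were -0.31 and -0.05. All 9 fibroblast markers had positive estimates in untreated EpiSCs against mES cells, the comparison in which Zfp521 was called. The lines differed there, as the median log2 ratio of the 9 over mES cells was -0.26 in E3.5 and 1.93 in E5.5 EpiSCs. Zfp521 had ratios of 4.09 and 3.82 in the same order. Of 6 EpiSC markers, which include Pou3f1, 4 fell with SB431542 in EpiSCs (Fgf5, Fgf8, Dnmt3b and Lefty2) and 5, with Otx2 added, with the line as a block, so that Pou3f1 was the 1 that did not pass in either fit. The median of that list was -5.01, and its sum was 61.0 and 4.25 in the E3.5 pair, 81.6 and 7.17 in the E5.5 pair and 37.6 and 31.3 in the mES pair. Of 6 mesoderm markers, 2 fell (T and Eomes) and 3, with Mixl1, with the block, with sums of 4.26 and 0.672 in the E3.5 pair and 4.18 and 0.987 in the E5.5 pair. Of 6 naive ES cell markers 0 were called without the block and 1 (Tfcp2l1) fell with it, and of 6 endoderm markers 0 were called in either fit. The part of these cell types in the values of Zfp521, Pou3f2, Sox21 and Sox11 was not tested.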

How the data were processed

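Total RNA of 6 samples, labelled in a single colour, was hybridised to Agilent arrays. The deposited scanner files hold linear spot intensity after background subtraction and detrending; per the file headers this was done in Agilent Feature Extraction 10.7.1.1, whereas the submitters' processing notes name version 9.1. The deposited value table of the series held the same intensities at 45018 of 45018 spots on each array. Flags for spots above background came, per the file headers, from that program too. The scanner files as used here carried transcript accessions, so 24375 of 41174 probes were named by matching accessions to RefSeq (GRCm38.p6), 13 of them for the members, and 16799 were not named. The file headers name another build, so coordinates are given for RefSeq promoter windows alone.

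Control spots and outliers were dropped, and repeats of a probe averaged. Values were log2 of processed intensity minus the 75th percentile of the array, with 1 probe per gene (highest mean signal). The 16153 genes well above background on at least 1 array were tested, 14476 of them so on all 6. limma 3.58.1 in R 4.3.3 (lmFit, eBayes) was used with Benjamini-Hochberg adjustment over all genes, in a model of 4 arms (mES and EpiSC, each untreated or treated; 2 residual degrees of freedom) or, across lines and between EpiSC lines, of line plus treatment. With 1 array per mES arm, the mES spread was taken as that of the EpiSC arms. Treated and untreated arrays are paired by the cell line named in the labels, so the fit with the line as a block (1 residual degree of freedom) is given where it changes a call. Pairs of arrays were described by a 2-fold rule. The script was tested on simulated data. Alternatives were other scaling, normexp background correction (on median spot and background signals, as mean signals were not used here), no or a stricter filter on dim probes, other probe choices, the deposited table, the slide, and each array left out. All 10 members and every probe of each were named, with called genes of each marker list (up to 4) and the 3 genes of most similar profile. Genes that these rules name but the text does not print are not reported here. The members and lists were chosen with earlier results of these data known. The number of arrays limits the precision.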

Additional observations from a re-analysis of the deposited data

Results flagged for a closer look

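The ratio of the mES pair had the opposite sign to both EpiSC pairs for 3 members, though it was near 0 for Sox3 and Pou3f2. The log2 ratio of the treated to the untreated mES array was -0.06 (-0.0644) for Sox3, -0.35 (-0.354) for Sox11 and -0.01 (-0.0086) for Pou3f2, where the E3.5 and E5.5 EpiSC ratios were 0.75 and 0.87, 2.35 and 1.84, and 5.28 and 4.89. The difference between the responses was tested and did not pass for any of them (limma, adjusted p = 0.867 for Sox3, 0.469 for Sox11 and 0.286 for Pou3f2). For Pou3f2 the mES ratio was positive with quantile normalization (0.0289) and with normexp (0.14). The ratios of the E3.5 and E5.5 EpiSC pairs had opposite signs for 2 members. The E3.5 ratio was -0.03 (-0.0303) for Pou3f3 and -0.46 (-0.4582) for Pou3f4, against 0.997 and 0.48 in the E5.5 pair. These differences between the lines were not tested. With normexp the E3.5 ratio of Pou3f3 was 0.20 and the E5.5 ratio of Pou3f4 was -0.41. The signs then no longer differed between the lines.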

How the results depend on the processing

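Of 700 member estimates recomputed under the alternatives, 654 kept their direction and their side of the threshold. Many of them could not change direction. The deposited table held the same values, and other filters on dim probes left the estimates themselves as they were. So did the mean over probes for the 8 members with 1 probe, and leaving out an array that a comparison does not use. The count is thus no measure of how robust the estimates are. For SB431542 in EpiSCs, 338 genes and 1 member were called higher or lower. The counts were 856 genes and 4 members with the line as a replicate block. They were 540 genes and 4 members with genes above background on all 6 arrays. With every probe tested, 586 of 37263 probes were called. With normexp 3 members (Pou3f2, Sox21 and Zfp521) were called, and its count over all genes is not reported here. The block changed no call in the test of the difference from mES cells, nor did leaving it out across the 3 lines (0 genes each). For untreated EpiSCs against mES cells, 242 genes were called, and 455 of 37263 probes with every probe tested. Leaving out an array gave 0 to 242 genes and 0 to 1 member there, 0 to 338 genes and 0 to 1 member for SB431542 in EpiSCs (0 without either treated EpiSC array, 206 without the untreated E3.5 array), 0 to 856 genes and 0 to 4 members across 3 lines (3 genes without either E5.5 array), and 0 to 6 genes between the EpiSC lines. The 856 genes and 4 members across 3 lines repeat the counts of the line block, since both fits rest on the EpiSC pairs. The cause of these shifts was not tested, beyond the fewer arrays or genes that the alternatives use.

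Signs turned mainly where estimates were near 0. Between E5.5 and E3.5 EpiSC lines, leaving out an array gave -0.61 to 0.97 for Pou3f1, -1.43 to 1.41 for Pou3f2, -1.12 to 0.31 for Pou3f3, -0.11 to 0.40 for Sox1, -1.21 to 0.40 for Sox11, -1.71 to 0.23 for Sox21 and -0.0597 to 0.58 for Sox4. Normexp gave -0.01 (-0.0085) for Pou3f1, 0.19 for Pou3f2 and 0.0237 for Sox3 there, and median scaling 0.0269 for Pou3f2. In untreated EpiSCs against mES cells, Sox1 was 0.0012 with normexp and Pou3f4 ranged from -0.57 to 0.57 leaving out an array. For Pou3f4, leaving out an array gave -1.03 to 1.05 for SB431542 in EpiSCs, -0.0753 to 0.39 across 3 lines and -1.33 to 0.74 for the difference from mES cells, and normexp gave -0.43 in EpiSCs and -0.23 across 3 lines. Pou3f3 ranged from -0.43 to 0.48 across 3 lines. Of 120 recomputed single-pair ratios 6 changed sign, among them Pou3f3 in the E3.5 pair (2.34 as the mean of its probes) and Sox3 in the E5.5 pair (-0.01 with normexp).

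Quantile normalization moved array medians by up to 0.14 on the log2 scale. The slide could not be fitted as a random block, and as a fixed block it leaves 0 residual degrees of freedom in the model of 4 arms. Across 3 lines a fixed slide leaves the 4 arrays of slide 1, the same fit as without an E3.5 array, and 0 genes were called. Within slide 1 every member had the direction of the estimate over all arrays in the 4 comparisons available there, except Pou3f4 in the difference from mES cells (0.17 against -0.30). Signals near background, as for Pou3f4, Sox3 and the dimmer Pou3f3 probe, limit their ratios. The low processed intensities of Pou3f2 in mES cells and untreated EpiSCs (49.9 to 126) and of Zfp521 in untreated mES cells (98.4) do so too. With normexp Zfp521 was higher in untreated EpiSCs by 3.33 in place of 3.95. The response of Pou3f2 was then larger in EpiSCs than in mES cells by 4.28 in place of 5.10. With 1 array a group each estimate rests on the lines as replicates.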
